A study of Mus musculus with 18 samples.

Results

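The vesicular glutamate transporter genes Slc17a6, Slc17a7 and Slc17a8 and the zinc transporter genes Slc30a3 and Slc30a1 were followed through striatal libraries, with the aim of setting transcripts typical of cortical glutamatergic neurons beside those typical of thalamic ones. The members were the rows of the count table whose Ensembl identifiers map to these symbols, which gave 5 of 55421 genes. Total RNA came from striatum that was dissected and flash frozen from C57BL/6J mice of 12 to 14 months, and each mouse gave 1 library. The groups were 5 WT mice, 5 zQ175 mice, 3 CK2a'(+/-) mice and 5 zQ175:CK2a'(+/-) mice. The zQ175 allele places an expanded CAG repeat in the mouse huntingtin gene, so every cell that expresses huntingtin carries it, and the zQ175 mice were heterozygous according to the study's methods. CK2a'(+/-) mice lack 1 allele of Csnk2a2, the gene of the CK2 alpha prime catalytic subunit, and zQ175:CK2a'(+/-) mice carry both changes. According to the study's methods, the CK2a'(+/-) line came from a mixed background and was crossed for generations with WT and zQ175 mice. The labels do not give a sex for each library, and the study's methods give females and males in unequal proportions between groups.

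Vesicular glutamate transporters load glutamate into synaptic vesicles, and the isoform a neuron uses reflects its origin. Slc17a7 encodes VGLUT1, the isoform of most cortical and hippocampal pyramidal neurons, Slc17a6 encodes VGLUT2, the isoform of most thalamic relay neurons, and Slc17a8 encodes VGLUT3, which striatal cholinergic interneurons use beside acetylcholine. The striatum is innervated by cortical and thalamic glutamatergic axons, whereas its own projection neurons are GABAergic, so the messenger RNAs of VGLUT1 and VGLUT2 are made mostly in cell bodies outside it. Slc30a3 encodes ZnT3, which fills glutamatergic vesicles with zinc in cortical and hippocampal neurons, and Slc30a1 encodes ZnT1, a widely expressed exporter that moves zinc out of the cell.

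All 5 members lie on GRCm38. Slc17a6 (ENSMUSG00000030500) spans chr7:51622006-51671119 and Slc17a7 (ENSMUSG00000070570) spans chr7:45163949-45176142, both on the plus strand. Slc17a8 (ENSMUSG00000019935) spans chr10:89574020-89621253 and Slc30a3 (ENSMUSG00000029151) spans chr5:31086106-31108237, both on the minus strand. Slc30a1 (ENSMUSG00000037434) lies on the plus strand at chr1:191906767-191913247. Slc30a1 shares 468 exonic bases with the antisense gene 1700034H15Rik, which had 1 count over all libraries, and the other 4 members share no exonic base with another gene.

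Sequence before the transcription start is shown for the 3 tested members whose levels varied most between libraries. It was taken from RefSeq windows on GRCm38.p6, which covered 5 of 5 members, is printed on the gene's strand, and was cut where an annotated exon begins. Capitals mark matches on either strand to the GC box GGGCGG, which Sp1 family factors recognize, to the E-box CAGATG, which NeuroD factors recognize, and to the metal response element in the forms TGCACNC and TGCGCNC. The window of Slc17a6 lies at chr7:51621580-51621829, that of Slc17a7 at chr7:45163671-45163920, and that of the second listed start of Slc30a3 at chr5:31093616-31093777.
Slc17a6: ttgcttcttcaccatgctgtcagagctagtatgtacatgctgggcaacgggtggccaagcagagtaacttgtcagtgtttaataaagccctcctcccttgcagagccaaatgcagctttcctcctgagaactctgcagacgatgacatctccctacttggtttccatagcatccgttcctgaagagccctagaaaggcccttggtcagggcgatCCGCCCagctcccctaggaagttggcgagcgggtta
Slc17a7: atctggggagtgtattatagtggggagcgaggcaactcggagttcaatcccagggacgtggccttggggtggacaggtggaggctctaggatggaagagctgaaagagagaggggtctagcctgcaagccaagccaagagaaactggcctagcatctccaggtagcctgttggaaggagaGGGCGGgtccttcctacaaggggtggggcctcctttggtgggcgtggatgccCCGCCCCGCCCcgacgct
Slc30a3: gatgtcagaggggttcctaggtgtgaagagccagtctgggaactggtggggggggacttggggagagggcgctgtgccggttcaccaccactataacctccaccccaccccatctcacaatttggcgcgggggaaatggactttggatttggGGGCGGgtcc
In the 250 bases before the start, Slc17a7 held 3 GC boxes, with 2 of them overlapping by a base, Slc30a3 held 2 at that start, 1 of them in the printed run, and Slc17a6 held 1. The first listed start of Slc30a3 and the second of Slc17a6 held 0 GC boxes. Slc17a8 held none at its first listed start, and Slc30a1 held 5 GC boxes and 1 metal response element. A GC box was present in 32.7% of 32851 promoter windows of the same length, 3 or more were present in 8.47%, an E-box in 14.4% and a metal response element in 21.4%. No E-box match was found at the first listed start of any of the 5 members, while the second listed starts of Slc17a6 and Slc17a8 held 1 each. The first listed start of Slc30a3 held 1 metal response element. These matches describe letters in a window and no binding was measured.

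Total counts ranged from 13612381 to 22702547 per library. Levels are library-size scaled counts (CPM) after normalization by the trimmed mean of M values (TMM), and differences come from edgeR's quasi-likelihood test on 20914 genes with a Benjamini-Hochberg adjusted p (FDR) under 0.1 as the threshold. Csnk2a2 lay between 14.7 and 19.9 CPM in all mice with 1 CK2a' allele and between 29.4 and 37.5 CPM in mice with both. The labelled tissue showed its defining transcripts, since the projection neuron markers Ppp1r1b and Penk were at or above 278 and 229 CPM in every library. A pair of zQ175 libraries stood apart. The library zQ175 replicate 1 had the highest summed level of 12 thalamic markers (1733 CPM, against 138 to 946 CPM elsewhere) and the lowest of 10 striatal projection neuron markers (1158 CPM) and of 5 cholinergic markers (20.7 CPM). The library zQ175 replicate 5 had the highest summed level of 10 cortical projection neuron markers (209 CPM, against 80.4 to 138 CPM elsewhere) and of 5 hippocampal markers (164 CPM), and it held Lct at 9.57 CPM while every other library was at or below 0.174 CPM.

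The order of the members was read per length, as CPM divided by exon length in kilobases (RPKM). Over the 18 libraries the median was 5.81 RPKM for Slc17a7, 3.99 for Slc17a6, 1.95 for Slc17a8, 0.195 for Slc30a3 and 0.0211 for Slc30a1. Slc17a7 was above Slc30a3 in 18 of 18 libraries and above Slc17a8 in 15. Slc17a6 was above Slc17a7 in 5 libraries and above Slc17a8 in 11, so these neighbours in the order did not keep their places from library to library. Slc30a3 was above Slc30a1 in 15 libraries. The spread between libraries also differed between members. The highest library was 124-fold above the lowest for Slc17a6 and 46.3-fold for Slc17a7, but 2.60-fold for Slc17a8.

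**Figure D1:**
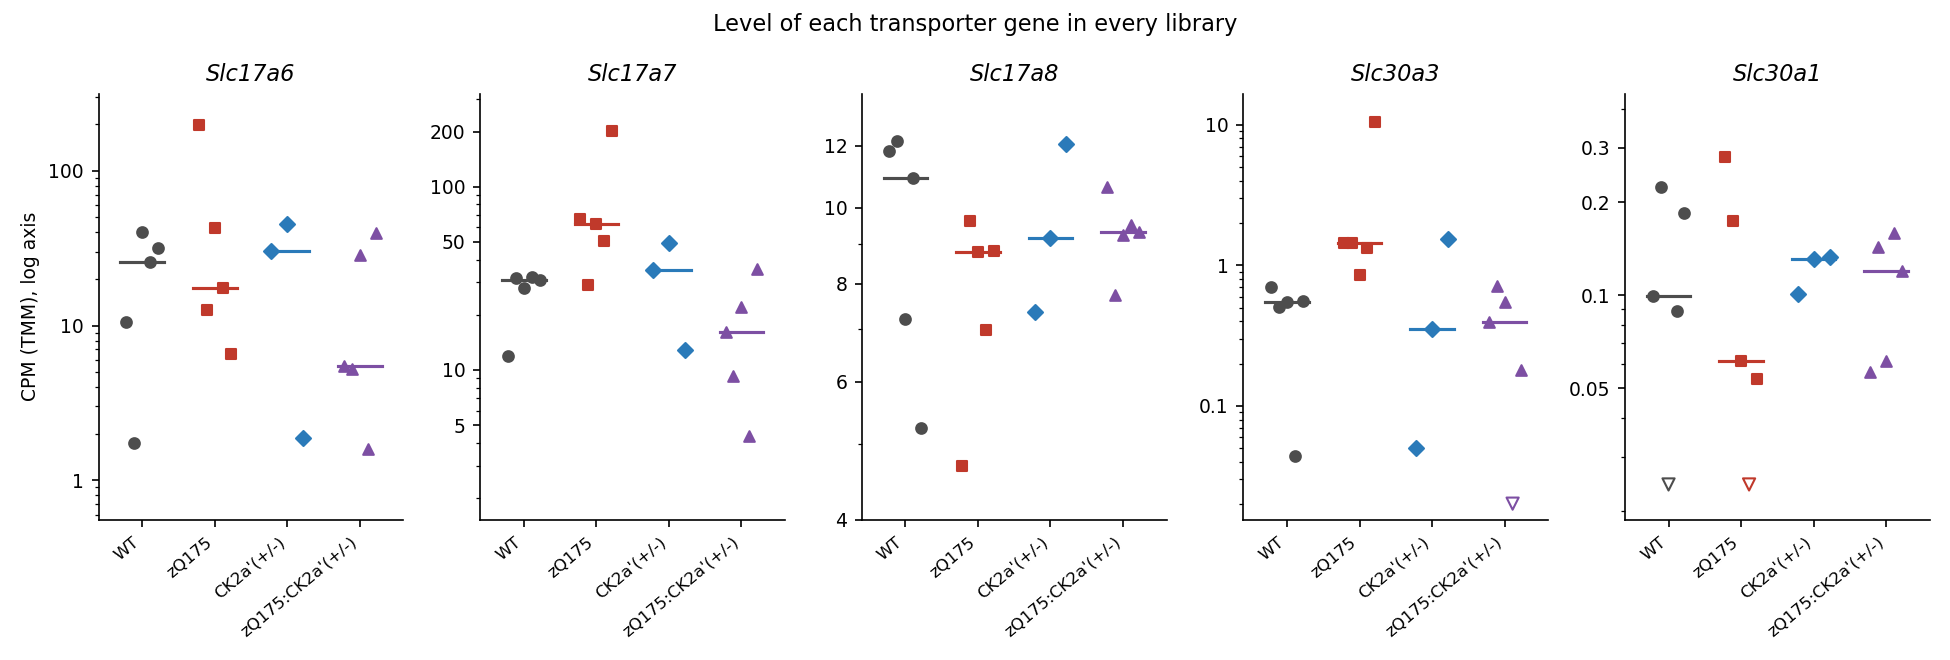
CPM of each member in each library on a log axis, by genotype, with a bar at the group median; open triangles stand for libraries with 0 counts. Slc17a6 reached 197 CPM in zQ175 replicate 1, Slc17a7 and Slc30a3 reached 202 and 10.4 CPM in zQ175 replicate 5, and Slc17a8 stayed between 4.69 and 12.2 CPM.

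Slc17a7 was higher in most zQ175 libraries than in WT and in zQ175:CK2a'(+/-) libraries, but the differences did not pass the threshold in edgeR with the filter on low counts. Its level was 11.9, 31.6, 28.0, 32.2 and 31.1 CPM in WT replicates 1 to 5 and 66.8, 29.1, 62.6, 50.5 and 202 CPM in zQ175 replicates 1 to 5. It was 35.1, 49.5 and 12.8 CPM in the 3 CK2a'(+/-) libraries and 16.0, 9.26, 22.2, 4.35 and 35.5 CPM in the 5 zQ175:CK2a'(+/-) libraries. Thus 4 of 5 zQ175 libraries lay above every WT library and 4 of 5 above every zQ175:CK2a'(+/-) library, with replicate 2 inside the range of both. The mean was 82.1 ± 68.4 CPM (SD, n = 5) in zQ175, 27.0 ± 8.57 in WT (n = 5), 17.5 ± 12.1 in zQ175:CK2a'(+/-) (n = 5) and 32.5 ± 18.5 in CK2a'(+/-) (n = 3). Against WT the log2 fold change was 1.61 ± 0.49 (SE), with an adjusted p of 0.139 in edgeR. Against zQ175:CK2a'(+/-) it was 2.24 ± 0.50, with an unadjusted p of 2.19e-04 and an adjusted p of 0.328. The exact two-sided permutation test of mean log2 CPM gave p = 0.0317 against WT and 0.0159 against zQ175:CK2a'(+/-), where 5 against 5 allow no p below 0.00794. These p values are not adjusted over the members or the comparisons. DESeq2 passed Slc17a7 against zQ175:CK2a'(+/-) (adjusted p = 0.0985) but not against WT (0.108), and edgeR with no filter on low counts passed it in both (0.0089 against WT and 3.82e-04 against zQ175:CK2a'(+/-)). Without zQ175 replicate 5 the log2 fold changes were 0.95 and 1.58, and without both zQ175 replicates 1 and 5 they were 0.81 and 1.44. Slc17a7 and Slc30a3 are also on a list of genes that the study picked from these libraries. So are Nr4a2, Tbr1 and Slc18a3, which are described below. The direction of these genes here is therefore not independent evidence for that list.

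Slc17a6 varied more between mice of a genotype than between genotypes. It stood at 10.5, 1.73, 40.1, 25.6 and 31.6 CPM in WT replicates 1 to 5 and at 197, 12.7, 42.8, 17.5 and 6.56 CPM in zQ175 replicates 1 to 5. In CK2a'(+/-) libraries it stood at 30.3, 45.2 and 1.87 CPM, and in zQ175:CK2a'(+/-) libraries at 5.46, 5.24, 28.7, 1.59 and 39.7 CPM. Every group therefore overlapped every other, and the highest library was 23.2-fold to 30.1-fold above the lowest in each. The mean of 55.4 ± 80.5 CPM (SD, n = 5) in zQ175 against 21.9 ± 15.6 in WT (n = 5) rested on replicate 1. The log2 fold change was 1.35 ± 0.89 (edgeR, adjusted p = 0.538) with it and -0.14 ± 0.81 without it. Against zQ175:CK2a'(+/-) it was 1.79 ± 0.91 (adjusted p = 0.830), and 0.29 ± 0.82 without that library. The 95% interval of the difference from WT ran from -0.57 to 3.26 on the log2 scale, so neither no difference nor one of 3 log2 units was outside it.

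The balance of VGLUT1 to VGLUT2 transcripts was read as the ratio of Slc17a7 to Slc17a6 in RPKM. It exceeded 1 in 13 of 18 libraries, and it ran from 0.339 in zQ175 replicate 1 to 30.8 in zQ175 replicate 5, both within a single genotype. In WT the ratio was 1.13, 18.3, 0.699, 1.26 and 0.988, so 4 libraries lay close to equality and replicate 2 did not. In CK2a'(+/-) it was 1.16, 1.10 and 6.87, and in zQ175:CK2a'(+/-) 2.94, 1.77, 0.775, 2.74 and 0.894. The mean log2 ratio was 0.83 ± 1.90 (SD, n = 5) in WT, 1.33 ± 2.35 in zQ175 (n = 5), 1.04 ± 1.51 in CK2a'(+/-) (n = 3) and 0.66 ± 0.89 in zQ175:CK2a'(+/-) (n = 5). The group means were closer together than the libraries of any group, and no p was computed for this score over 2 members. Without zQ175 replicate 5 the difference between zQ175 and WT turned from 0.50 to -0.40, and without WT replicate 2 it was 1.34.

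**Figure D2:**
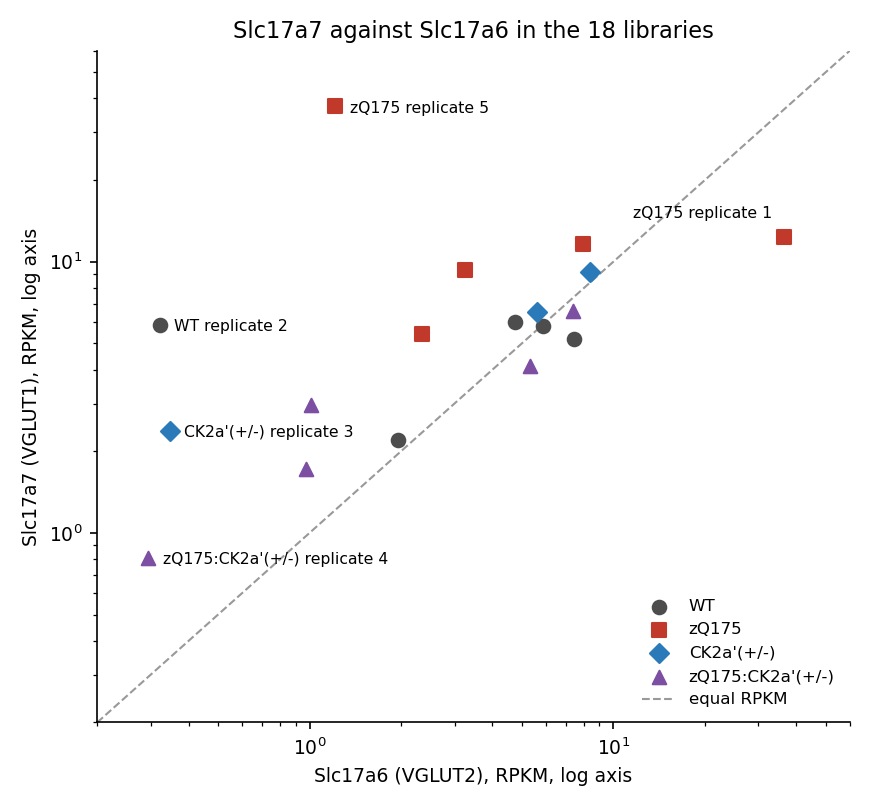
RPKM of Slc17a7 against RPKM of Slc17a6 on log axes, 1 point per library, coloured by genotype, with a dashed line at equality. 13 of 18 points lie above the line, and the zQ175 libraries hold both the highest ratio, 30.8, and the lowest, 0.339.

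Slc17a6 followed markers of thalamic neurons from library to library. Over the 18 libraries, which share tissue, protocol and sequencing lane, Spearman's rho with Slc17a6 lay between 0.55 and 0.96 for the 12 of 12 tested thalamic markers, with a median of 0.927, against a median of -0.0175 over all genes tested. With genotype means subtracted the median was 0.920, and without zQ175 replicate 5 it was 0.944. Cux2, which stands on the cortical list, also followed Slc17a6 (rho = 0.891). Among the thalamic markers, Tcf7l2, a transcription factor of thalamic neurons, stood at 288 CPM in zQ175 replicate 1 and between 10.1 and 81.2 CPM elsewhere, and Prkcd, a protein kinase C of thalamic relay neurons, stood at 303 CPM there and between 3.88 and 228 CPM elsewhere. The libraries with the 3 lowest Slc17a6 levels, zQ175:CK2a'(+/-) replicate 4, WT replicate 2 and CK2a'(+/-) replicate 3, had summed thalamic markers of 138, 191 and 143 CPM. Lhx9, a thalamic transcription factor, had 0 counts in 3 libraries, and the other 11 markers were detected in all. The summed level of the list ran from 191 to 671 CPM in WT, from 178 to 1733 in zQ175, from 143 to 946 in CK2a'(+/-) and from 138 to 742 in zQ175:CK2a'(+/-). In zQ175 against WT, 11 of the 12 fold changes were above 0 with a median of 0.62 log2 units, and 0 passed in edgeR (1 at an unadjusted p under 0.05) or in DESeq2. Without zQ175 replicate 1, 3 of 12 were above 0 and the median was -0.05. All 12 were above 0 in zQ175 against zQ175:CK2a'(+/-) (median 0.77) and in CK2a'(+/-) against WT (0.51). All 12 were below 0 in zQ175:CK2a'(+/-) against WT (-0.21) and against CK2a'(+/-) (-0.69). In each of these 0 passed in the main edgeR fit. Habenular markers, another VGLUT2 source, were low throughout, with a summed level of 0.838 to 8.62 CPM. In the main edgeR fit 0 of 3 tested passed in any comparison. Pou4f1 passed in zQ175:CK2a'(+/-) against CK2a'(+/-) in edgeR with no filter on low counts and with only those groups in the fit. Whether these cells contributed to the level of Slc17a6 was not tested.

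Markers of cortical and hippocampal neurons were highest in the library in which Slc17a7 and Slc30a3 were highest. In zQ175 against WT, 8 of 9 tested cortical projection neuron markers had fold changes above 0, with a median of 1.27 log2 units against 0.00424 over all genes, and 1 passed. Tbr1, a transcription factor of deep-layer cortical neurons, rose by 1.27 ± 0.32 log2 units (edgeR, adjusted p = 0.0902), from 2.13 to 5.82 CPM in WT to 3.61 to 17.3 CPM in zQ175. C1ql2, a synaptic organizer of hippocampal mossy fibers, rose by 2.97 ± 0.66 (adjusted p = 0.0588), and it was the only 1 of 4 tested hippocampal markers to pass. Nr4a2, a nuclear receptor of the claustrum and deep cortical layers, rose by 1.28 ± 0.34 against WT (adjusted p = 0.0990) and by 2.23 ± 0.36 against zQ175:CK2a'(+/-) (adjusted p = 0.0338), as 1 of 4 tested claustrum markers. Of those 4, 3 had fold changes above 0 in each of these comparisons, with list medians of only 0.216 and 0.315. Nr4a2 lay between 9.97 and 14.4 CPM in zQ175, above the 2.32 to 9.06 CPM of WT and the 1.23 to 4.52 CPM of zQ175:CK2a'(+/-). Neurod6, a transcription factor of cortical and hippocampal pyramidal neurons, stood at 45.7 CPM in zQ175 replicate 5 and at or below 4.97 CPM elsewhere. In zQ175 against zQ175:CK2a'(+/-), 8 of 9 cortical markers had fold changes above 0 (median 0.95), as did 4 of 4 hippocampal ones (0.81). Of both lists 0 passed there in the main edgeR fit. The summed cortical list ran from 83.4 to 116 CPM in WT, from 108 to 209 in zQ175, from 80.4 to 98.2 in CK2a'(+/-) and from 89.7 to 114 in zQ175:CK2a'(+/-). The summed hippocampal list ran from 63.0 to 80.9, 69.4 to 164, 44.1 to 87.1 and 57.3 to 94.2 CPM in the same order. Among their defining markers, Emx1 had 0 counts in 5 libraries, Lct in 11, and Neurod6 and Neurod1 in 1 each. Without zQ175 replicate 5 the fold change of C1ql2 was 1.73, that of Tbr1 1.01 and that of Nr4a2 1.24, and none passed against WT in a fit in which 0 of 20814 genes did. None of these 3 genes passed without WT replicate 1 (2.82, 1.23 and 1.35) or without WT replicate 3 (2.83, 1.25 and 1.10) either, nor with only WT and zQ175 libraries in the fit or with the Xist level as covariate. Nr4a2 and Tbr1 also missed the threshold against WT without WT replicate 5 (adjusted p = 0.162 and 0.142), without zQ175 replicate 2, 3 or 4 (0.105 to 0.150 for Nr4a2 and 0.101 to 0.146 for Tbr1) and with the replicate block (0.125 and 0.165). Nr4a2 missed it without zQ175 replicate 1 (0.124), with the robust fit (0.104) and with at least 10 counts in 2 libraries (0.102) as well. Without both zQ175 replicates 1 and 5 the cortical median was 0.29, C1ql2 was at 1.203, and Nr4a2 did not pass against zQ175:CK2a'(+/-) (2.21 ± 0.40, adjusted p = 0.149). Nr4a2 also missed the threshold against zQ175:CK2a'(+/-) with the replicate block (adjusted p = 0.117), without zQ175 replicate 3, 4 or 5 (0.110, 0.131 and 0.113) and without zQ175:CK2a'(+/-) replicate 3 or 4 (0.158 each), while its fold change stayed between 2.04 and 2.47 in fits without 1 library. With limma and sample weights C1ql2 was at 2.17 against WT (adjusted p = 0.218), while Nr4a2 (0.0324) and Tbr1 (0.0752) passed. In DESeq2 all 3 genes passed against WT (adjusted p = 0.00144 for C1ql2, 0.0136 for Nr4a2 and 0.0104 for Tbr1). With no filter on low counts they did so too (0.0037, 0.0139 and 0.0139). Against zQ175:CK2a'(+/-), Nr4a2 and Tbr1 passed in DESeq2 (7.74e-07 and 0.0194) and with no filter (1.86e-05 and 0.0114), and C1ql2 did not (0.470 and 0.396). Limma passed only Nr4a2 there (0.00195). Over the 18 libraries the median rho with Slc17a7 was 0.420 for the cortical markers and 0.543 for the thalamic ones, and with Slc30a3 it was 0.249 and -0.136. Without zQ175 replicate 5 the medians with Slc17a7 were 0.321 and 0.740, with 11 of 12 thalamic markers above 0.5, and the cortical median with Slc30a3 was 0.108. The rho of Slc17a6 with Slc17a7 was 0.606, and 0.740 without that library. The part of such cells in the levels of Slc17a7 and Slc30a3 was not tested, and in bulk tissue a change in the number of cells and a change in RNA per cell cannot be told apart.

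**Figure D3:**
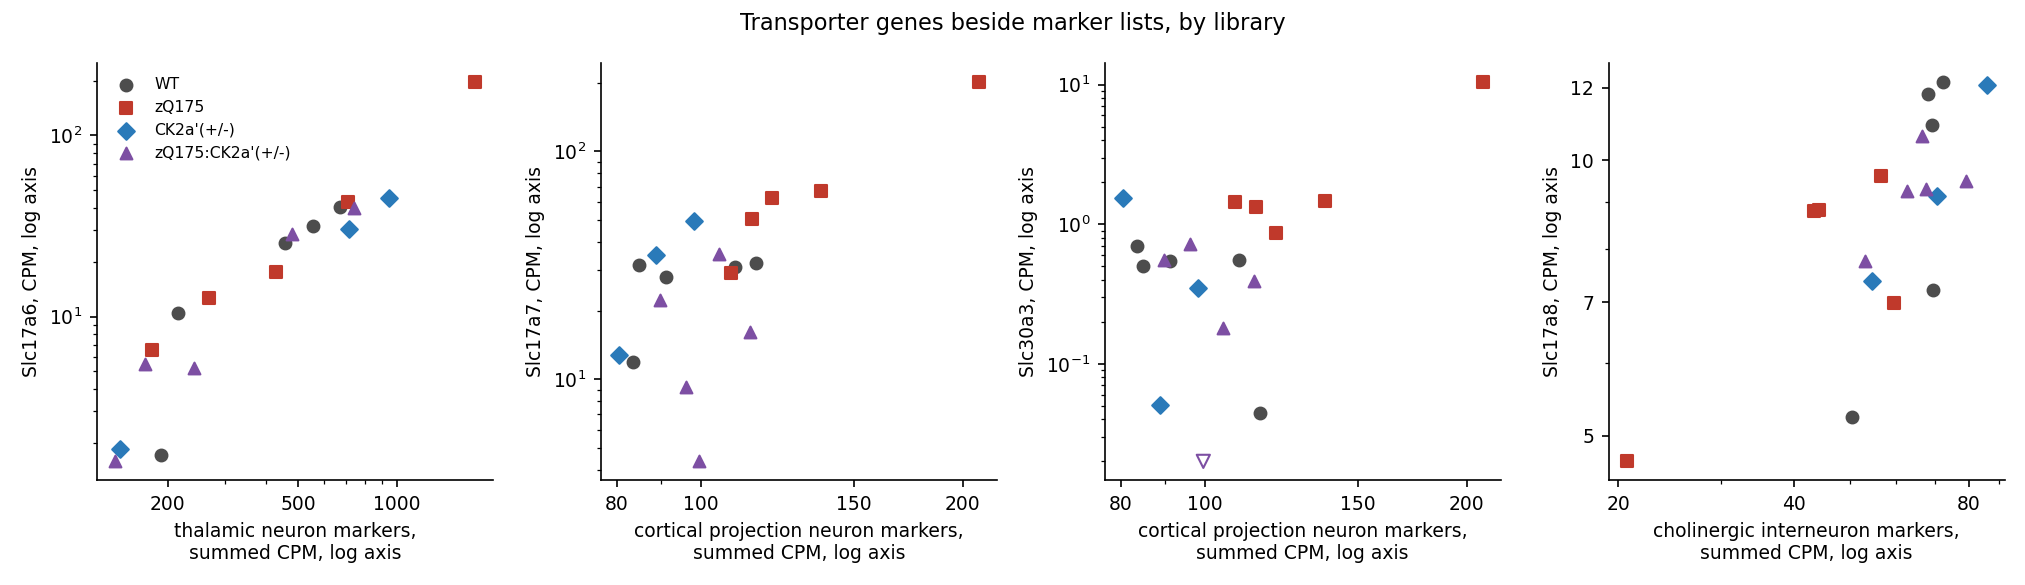
CPM of 4 members against the summed CPM of a marker list in each library, on log axes, coloured by genotype; the open triangle is a library with 0 counts of Slc30a3. Slc17a6 rose with the thalamic list, but not in strict order. WT replicate 2 held 1.73 CPM at a thalamic sum of 191 CPM, and zQ175 replicate 5 held 6.56 CPM at 178 CPM. The high Slc17a7 and Slc30a3 values of zQ175 replicate 5 lie at the highest cortical sum, 209 CPM.

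Slc17a8, the VGLUT3 gene, was the steadiest member. It stood at 11.8, 12.2, 7.22, 10.9 and 5.24 CPM in WT replicates 1 to 5 and at 4.69, 9.62, 8.79, 6.99 and 8.82 CPM in zQ175 replicates 1 to 5. The CK2a'(+/-) libraries held 7.37, 9.14 and 12.1 CPM and the zQ175:CK2a'(+/-) libraries 10.6, 7.75, 9.25, 9.5 and 9.32 CPM. All groups overlapped. The log2 fold change was -0.29 ± 0.22 in zQ175 against WT (edgeR, adjusted p = 0.615), with a 95% interval from -0.76 to 0.19, and -0.03 ± 0.22 in zQ175:CK2a'(+/-) against WT, with an interval from -0.50 to 0.45. A decrease of more than 0.76 log2 units in zQ175 was outside the interval. Slc17a8 went with markers of striatal neurons. Its rho with the 5 cholinergic interneuron markers lay between 0.397 and 0.701 and was highest for Slc5a7, the choline transporter. The median rho was 0.554 with those markers, 0.513 with 10 striatal projection neuron markers and -0.586 with 12 thalamic ones. With genotype means subtracted these medians were 0.389, 0.639 and -0.644. Lamp5, which stands on the cortical list, also followed Slc17a8 (rho = 0.583), while the median of that list was 0.053. The rho of Slc17a8 with Slc17a6 was -0.614 (Pearson r = -0.645), and -0.639 with genotype means subtracted. The lowest Slc17a8 level, 4.69 CPM, and the lowest cholinergic sum, 20.7 CPM, were both in zQ175 replicate 1. The cholinergic sum ran from 50.3 to 72.2 CPM in WT and from 20.7 to 59.4 in zQ175. All 5 cholinergic fold changes of zQ175 against WT were below 0, with a median of -0.65, and 0 passed in edgeR, where 4 had an unadjusted p under 0.05, while Chat and Slc18a3 passed in DESeq2. Their part in the level of Slc17a8 was not tested.

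Slc30a3, the ZnT3 gene, was the member whose zQ175 libraries did not overlap with WT or zQ175:CK2a'(+/-) libraries, at low counts. It had 14, 9, 8, 1 and 12 counts in WT replicates 1 to 5 and 31, 25, 14, 20 and 194 counts in zQ175 replicates 1 to 5. In CPM these were 0.698, 0.503, 0.545, 0.0444 and 0.556 in WT and 1.45, 1.45, 0.861, 1.32 and 10.4 in zQ175. The CK2a'(+/-) libraries held 0.0505, 0.350 and 1.54 CPM and the zQ175:CK2a'(+/-) libraries 0.394, 0.718, 0.551, 0 and 0.180 CPM, where the 0 counts of replicate 4 allow up to 0.159 CPM. All 5 zQ175 libraries thus lay above all 5 WT and all 5 zQ175:CK2a'(+/-) libraries, while 1 of 3 CK2a'(+/-) libraries was higher than 4 of the zQ175 libraries. Of all genes tested, 1.26% were higher without overlap in zQ175 than in WT and 0.564% than in zQ175:CK2a'(+/-). The log2 fold change was 2.73 ± 0.82 against WT (edgeR, adjusted p = 0.139) and 3.09 ± 0.85 against zQ175:CK2a'(+/-) (adjusted p = 0.482). The exact permutation test gave p = 0.00794 in both, the smallest that 5 against 5 allow, unadjusted. Without zQ175 replicate 5 the log2 fold changes were 1.43 and 1.79. DESeq2 put Slc30a3 past the threshold in both comparisons, with an adjusted p of 0.0282 against WT and 0.0874 against zQ175:CK2a'(+/-). Its rho with Slc17a7 over the libraries was 0.238 (Pearson r = 0.547), and with the 2 libraries farthest from the median of Slc17a7 left out, r was -0.056.

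Slc30a1, the ZnT1 gene, did not pass the filter on low counts. It had 39 counts over the 18 libraries, from 0 to 6 in each, and had 0 counts in 2 libraries, which allow up to 0.198 and 0.204 CPM. Its highest level was 0.281 CPM, in zQ175 replicate 1. The group means lay between 0.108 CPM in zQ175:CK2a'(+/-) and 0.122 CPM in CK2a'(+/-), and a difference between genotypes was not detectable at this depth (two-sided exact permutation p from 0.607 to 0.992 over the 5 comparisons).

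Other zinc genes set the members in context. Of 8 other SLC30 exporters, 5 were tested and 0 passed in any comparison, and of 14 SLC39 importers, which bring zinc into the cytosol, 13 were tested and 0 passed. The median log2 fold change of zQ175 against WT was 0.04 for the former and -0.01 for the latter. Slc30a9, a mitochondrial zinc transporter on the exporter list, ranged from 98.1 to 121 CPM over the libraries. Of the metallothioneins, which bind zinc and copper, Mt1 and Mt2 passed and Mt3 did not. Mt2 fell by 0.65 ± 0.16 log2 units (edgeR, adjusted p = 0.0765) and Mt1 by 0.45 ± 0.12 (adjusted p = 0.0983) in zQ175 against WT, the 2 of 4 tested genes that passed in a list with Mt3 and the zinc-sensing factor Mtf1. Mt3 was -0.25 ± 0.17 (adjusted p = 0.544). Mt1 stood at 187, 192, 135, 134 and 153 CPM in WT replicates 1 to 5 and at 104, 118, 132, 126 and 107 CPM in zQ175 replicates 1 to 5, without overlap, as did 1.19% of all genes in that direction. Mt2 stood at 57.7, 56.8, 41.2, 37.8 and 56.1 CPM in WT and at 27.7, 30.8, 39.5, 34.5 and 26.9 CPM in zQ175, where replicate 3 reached the range of WT. In zQ175:CK2a'(+/-) mice Mt1 was -0.26 ± 0.12 and Mt2 -0.27 ± 0.16 against WT, and neither passed. In fits without 1 WT or zQ175 library the adjusted p ran from 0.0719 (without WT replicate 4) to 0.204 (without WT replicate 1) for Mt1 and from 0.0441 (without WT replicate 4) to 0.159 (without WT replicate 1) for Mt2, with both changes below 0 in each. Neither passed without WT replicate 1, 3 or 5, without zQ175 replicate 1, 2 or 5, with only WT and zQ175 libraries in the fit, with the replicate block (0.122 for Mt1 and 0.105 for Mt2) or with limma and sample weights (0.140 and 0.109). Mt1 alone also missed the threshold without WT replicate 2 (adjusted p = 0.105), without zQ175 replicate 4 (0.101), with the Xist level as covariate (0.120) and with the filter of at least 10 counts in 2 libraries (0.101). Without both zQ175 replicates 1 and 5, the fold change was -0.35 (adjusted p = 0.359) for Mt1 and -0.51 (adjusted p = 0.320) for Mt2. In DESeq2 both passed, with an adjusted p of 0.0223 for Mt1 and 0.00911 for Mt2.

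**Figure D4:**
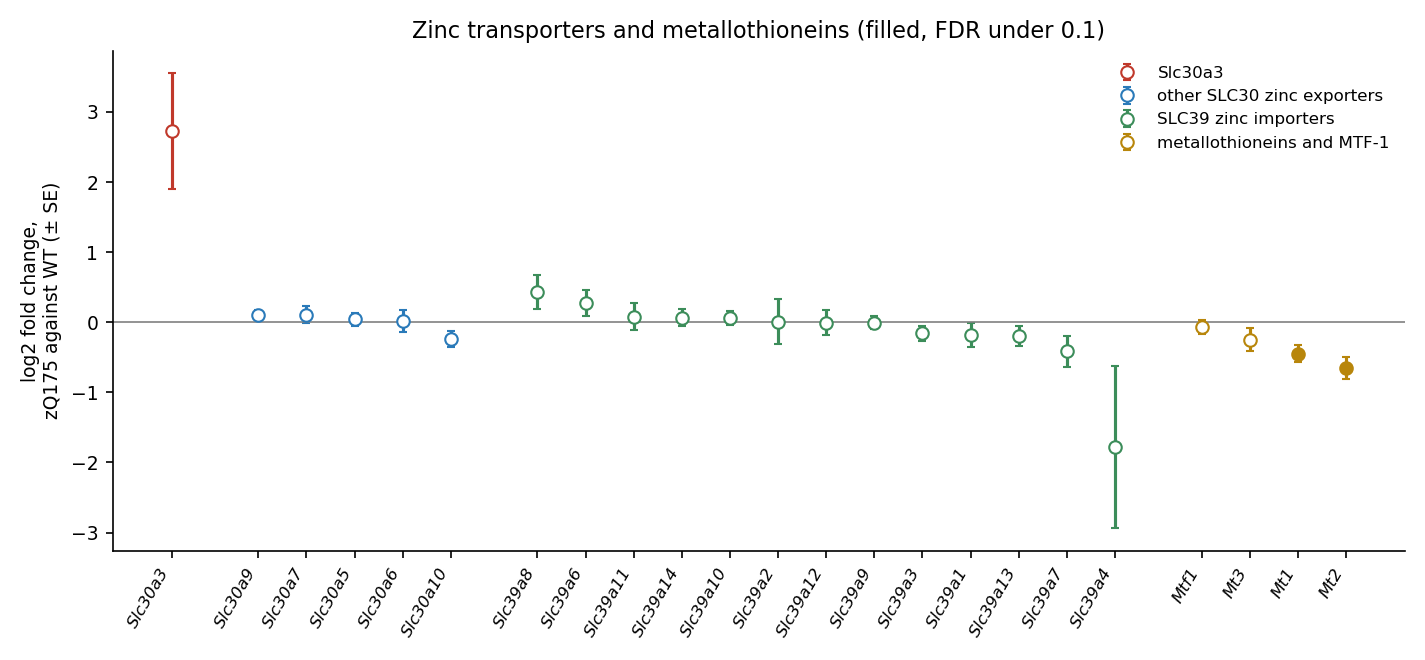
Log2 fold change of zQ175 against WT with its SE from edgeR for Slc30a3, 5 other SLC30 exporters, 13 SLC39 importers and 4 genes of the metallothionein list; filled points passed FDR 0.1. Only Mt1 and Mt2 are filled, and Slc30a3 lies highest at 2.73.

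In the rest of the vesicular and glutamate machinery no listed gene passed in the main edgeR fit. Of the vesicular transporters of other transmitters, 0 of 7 tested passed in any comparison, with a median of 0.09 log2 units and 3 at an unadjusted p under 0.05 in zQ175 against WT. DESeq2 passed Slc18a3 and Sv2b in zQ175 against WT, Slc18a3 in zQ175 against zQ175:CK2a'(+/-) and Sv2b in zQ175:CK2a'(+/-) against CK2a'(+/-). Among them Slc32a1, the vesicular GABA transporter of striatal neurons, stood at 132 to 154 CPM in WT and 78.6 to 135 CPM in zQ175 (-0.32 ± 0.11, edgeR adjusted p = 0.195). Sv2b, a vesicle glycoprotein, was 0.41 ± 0.11 in the same comparison (adjusted p = 0.110), and Slc18a3, the vesicular acetylcholine transporter, was -0.95 ± 0.27 (adjusted p = 0.116). Of 6 other SLC17 genes, 2 were tested and 0 passed, and Slc17a5, the lysosomal sialic acid transporter, stood at 4.95 to 11.2 CPM. The 7 AP-3 adaptor subunits, which sort vesicular transporters such as ZnT3 to synaptic vesicles, were all tested with 0 passing and a median of 0.03. Of 10 genes of glutamate supply and uptake, 0 passed in edgeR and 1 passed in DESeq2 in zQ175 against WT, with a median of 0.06 log2 units in zQ175 against WT. Of 10 striatal projection neuron markers, 3 fell in zQ175 against WT, namely Adora2a, an adenosine receptor of indirect-pathway neurons, by 1.12 ± 0.25, the enkephalin gene Penk by 1.00 ± 0.23, and Ppp1r1b, the gene of DARPP-32, by 0.85 ± 0.21 (adjusted p from 0.0557 to 0.0765). In zQ175:CK2a'(+/-) against CK2a'(+/-) all 10 fold changes were below 0, with a median of -0.74, and 2 passed, Adora2a (-1.21, adjusted p = 0.0733) and Penk (-1.04, adjusted p = 0.0989). With the replicate block none of the 10 passed in that comparison, where the number of genes that passed over all genes went from 124 to 12, and in fits without 1 of its libraries it lay between 6 (without CK2a'(+/-) replicate 2) and 48 (without CK2a'(+/-) replicate 1). Without zQ175 replicate 1, or without replicate 5, none of the 10 passed in zQ175 against WT, while all 10 fold changes remained below 0 with medians of -0.53 and -0.66 against -0.66 with all libraries.

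In no comparison did a member pass the threshold in edgeR with the filter on low counts, which 4 of 5 members passed. The share of all genes that passed was 1.10% in zQ175 against WT, 0.0143% in each of zQ175:CK2a'(+/-) against WT, zQ175 against zQ175:CK2a'(+/-) and CK2a'(+/-) against WT, 0.593% in zQ175:CK2a'(+/-) against CK2a'(+/-), and 0.00478% for the interaction. Slc17a7 and Slc30a3 had an unadjusted p under 0.05 in zQ175 against WT, in zQ175 against zQ175:CK2a'(+/-) and in the interaction, which share the zQ175 libraries, and no member did in the other 3. DESeq2 passed 1 member against WT, Slc30a3, and 2 against zQ175:CK2a'(+/-), Slc17a7 and Slc30a3. Of the 37580 genes with any count, 2.25% and 0.104% passed there. That total includes any gene that DESeq2 left without an adjusted p. In CK2a'(+/-) against WT, which asks what the loss of a CK2a' allele does without the zQ175 allele, log2 fold changes were 0.25 ± 1.02 for Slc17a6, 0.28 ± 0.55 for Slc17a7, 0.00 ± 0.26 for Slc17a8 and 0.41 ± 0.97 for Slc30a3. In zQ175:CK2a'(+/-) against WT they were -0.44 ± 0.90, -0.63 ± 0.49, -0.03 ± 0.22 and -0.36 ± 0.89 in the same order, and in zQ175:CK2a'(+/-) against CK2a'(+/-) -0.69 ± 1.02, -0.90 ± 0.55, -0.03 ± 0.26 and -0.77 ± 0.99. These intervals were wide for 3 of the 4 genes, for instance from -1.68 to 0.43 for Slc17a7 in zQ175:CK2a'(+/-) against WT. The interaction, which asks whether the zQ175 difference depended on the CK2a' allele, was -2.51 ± 0.73 for Slc17a7 (edgeR, adjusted p = 0.811) and -3.50 ± 1.28 for Slc30a3 (adjusted p = 0.902). It was -2.04 ± 1.35 for Slc17a6 and 0.25 ± 0.34 for Slc17a8.

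**Figure D5:**
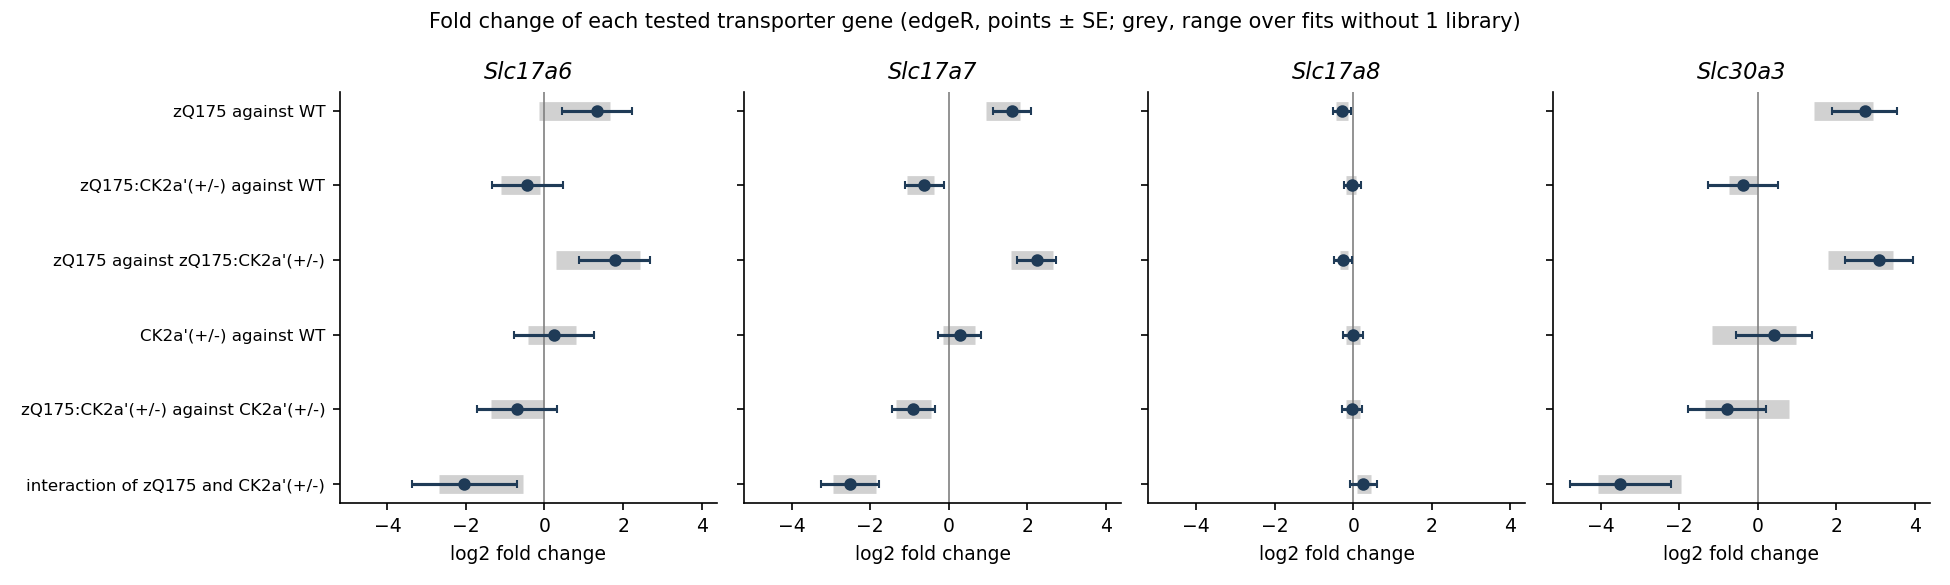
Log2 fold change of the 4 tested members in 5 comparisons and the interaction, as points with SE from edgeR, with grey bars for the range over fits that each leave out 1 library. The bars of Slc17a6 in zQ175 against WT reach below 0, while those of Slc17a7 run from 0.95 to 1.81 and those of Slc30a3 from 1.43 to 2.95.

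The genes most like each member were those with the highest Spearman rho over the 18 libraries among all genes tested, given as a description. For Slc17a6 they were Cacna1g (rho = 0.984, r = 0.979), the T-type calcium channel of thalamic relay neurons, and Ccdc136, Grid2ip, Ptpn3 and Amotl1, with rho from 0.961 to 0.977. Amotl1 also stands on the thalamic list. Cacna1g stood at 188 CPM in zQ175 replicate 1 and between 16.2 and 80.5 CPM elsewhere. For Slc17a7 they were Slc8a1 (rho = 0.884, r = 0.838), a sodium-calcium exchanger, and Gm42772, Sestd1, Syt1, the calcium sensor of vesicle release, and Lingo1, with rho from 0.864 to 0.870. For Slc17a8 they were Gm44116, Agbl5, Mapre2, Srsf7 and Pcdhgb6, with rho up to 0.82, and for Slc30a3 they were Gm47140 (rho = 0.884), F12, Gm13625, Pus7l and Gm42510, which, like Slc30a3, are of low level, with means from 0.228 to 2.40 CPM. With genotype means subtracted, 1 of the 5 genes named for Slc17a6 and 0 for each of the other 3 members stayed among the top 5. Without zQ175 replicate 5, 4 of 5 stayed for Slc17a6, 1 for Slc17a7 and 3 for each of Slc17a8 and Slc30a3.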

How the data were processed

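Striatal RNA from 18 mice was sequenced from libraries of the Takara stranded total RNA kit, pooled on a single sequencing lane. Per the labels and the study's methods, the authors trimmed adaptors and weak ends (Trimmomatic), mapped to GRCm38 (HISAT2 2.1.0) and counted with Subread 1.6.2. Before counting they discarded duplicated mappings, unmapped reads and poorly mapped reads. They deposited raw counts per gene without normalization. The strand setting of the counting is not given in the sources used here. The deposited length of each gene, a value of another kind made by the authors, served for RPKM. Of 55421 identifiers, 55154 were matched to a symbol.

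The main test was edgeR 4.0.16 (R 4.3.3), fitted to all 18 libraries at once with TMM, filterByExpr (20914 genes kept) and genotype as the only factor. SE is the fold change divided by the square root of the F statistic, and 95% intervals used 14 residual degrees of freedom. Log2 CPM used a prior count of 2. A count of 0 allows up to 3 counts, and such limits cover counting error only. The fits were tested on simulated data. Alternatives were DESeq2 1.42.0, limma 3.58.1 with sample weights, DESeq2 size factors, no filter or at least 10 counts in 2 libraries, only the groups compared, replicate block, Xist level, a robust fit, FDR 0.05, and leaving out each library. Leaving out both zQ175 replicates 1 and 5 was added after the data were seen.

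Members and lists were chosen with earlier results of these data known. Named genes were the members, Csnk2a2, of each list the genes that passed or else up to 4 with the highest mean CPM, and per member the 5 genes of highest rho. Tcf7l2, Lhx9, Neurod6, Neurod1, Emx1, Lct, Cux2 and Slc18a3 were named after their values were seen. Labels do not state separate litters, so p values measure the spread between these mice.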

Additional observations from a re-analysis of the deposited data

Results flagged for a closer look

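In 18 groups of 5 libraries (5 members and the ratio of Slc17a7 to Slc17a6, in 3 genotypes), the distance of an extreme library from its nearest neighbour was compared with the range of its group by Dixon's criterion. For normally distributed values this criterion flags about 1 in 20 groups by chance. The members were compared in CPM without a log transform, so that rate need not hold for them, and a flag can depend on the scale. The criterion marked 5 values. Slc17a6 was 197.2 CPM in zQ175 replicate 1, far above the other 4 libraries of that genotype. Slc17a7 was 201.7 CPM and Slc30a3 10.43 CPM in zQ175 replicate 5, both far above the other zQ175 libraries. Slc17a7 was 11.91 CPM in WT replicate 1, below the other WT libraries. The log2 ratio of Slc17a7 to Slc17a6 was 4.19 in WT replicate 2, above the other WT libraries, where Slc17a6 was at 1.73 CPM. CK2a'(+/-) libraries, 3 in number, were not examined this way.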

How the results depend on the processing

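Over fits that each left out 1 library, 241 of 256 values kept their direction and side of the threshold and 15 turned direction, and of 247 values under other alternatives 229 kept both, 8 passed the threshold newly and 10 turned direction. With DESeq2, 1 member passed in zQ175 against WT (Slc30a3, 2.74) and 2 in zQ175 against zQ175:CK2a'(+/-) (Slc17a7, 2.23, and Slc30a3, 3.09). With no filter on low counts 2 members passed in zQ175 against WT (Slc17a7, 1.603, and Slc30a3, 2.72), the same 2 in zQ175 against zQ175:CK2a'(+/-) (2.23 and 3.08), and 1 in the interaction (Slc17a7, -2.51). Under each fit that left out a library, 0 members passed. In zQ175 against WT the fits without 1 library gave -0.14 to 1.67 for Slc17a6. In zQ175:CK2a'(+/-) against WT they gave -0.18 to 0.066 for Slc17a8. In CK2a'(+/-) against WT they gave -0.42 to 0.79 for Slc17a6, -0.16 to 0.65 for Slc17a7, -0.20 to 0.16 for Slc17a8 and -1.15 to 0.97 for Slc30a3. In zQ175:CK2a'(+/-) against CK2a'(+/-) they gave -0.19 to 0.17 for Slc17a8 and -1.33 to 0.79 for Slc30a3. With the Xist level as covariate, Slc17a6 turned to -1.52 and Slc17a7 to -0.45 in CK2a'(+/-) against WT, and Slc17a6 to 0.61 in zQ175:CK2a'(+/-) against CK2a'(+/-) and to 0.54 in the interaction. With limma voom and sample weights, Slc17a8 turned to 0.12 in zQ175:CK2a'(+/-) against WT and 0.11 in zQ175:CK2a'(+/-) against CK2a'(+/-), and Slc30a3 to -0.87 in CK2a'(+/-) against WT and 0.24 in zQ175:CK2a'(+/-) against CK2a'(+/-). The cause of these turns was not tested.

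Replicate numbers did not pair the libraries. The deviations of same-numbered libraries from their group means correlated between -0.14 and 0.12 over 24 pairs of libraries, with 2 above 0.1. With the replicate block, Slc17a8 turned to -0.033 in CK2a'(+/-) against WT and to 0.025 in zQ175:CK2a'(+/-) against CK2a'(+/-), and the number of genes that passed went from 230 to 98 in zQ175 against WT and from 124 to 12 in zQ175:CK2a'(+/-) against CK2a'(+/-).

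Over all genes, the number that passed in zQ175 against WT was 847 with DESeq2, 451 with no filter, 51 at FDR 0.05 and 0 with only the groups compared (2337 at an unadjusted p under 0.05). It was 0 without WT replicate 3 (2367 at an unadjusted p under 0.05) or zQ175 replicate 5 (2566), 10 without WT replicate 1, 77 without zQ175 replicate 1, 133 without zQ175 replicate 3 and 587 without WT replicate 2. Without both zQ175 replicates 1 and 5, chosen after seeing the data, 0 of 20688 genes passed in edgeR (2113 at an unadjusted p under 0.05). Slc30a3 and Slc30a1 are limited by depth, at 0 to 194 and 0 to 6 counts per library.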
